A study of Mus musculus with 33 samples.

Results

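Uterine tissue taken 8 days after fertilization was compared with the uterus of non-pregnant mice, using the 4 arrays labelled day 8 and the 6 arrays labelled non-pregnant, 10 of the 33 arrays in the series. All mice were C57BL/6, an inbred laboratory strain, and 8 weeks old, and no genotype or treatment other than pregnancy separates the groups. The pregnant samples are described by the labels as uterine microenvironment, without saying whether muscle wall, embryo or trophoblast was removed. Arrays of day 6 (6) and day 10 (4) were used to place the day 8 values between the neighbouring days. The labels do not say that arrays hold separate animals, so p-values measure the spread between these samples, which may be technical.

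In the mouse, the stromal cells of the uterine lining answer the attached embryo by decidualization. They divide, many of them become polyploid, and they turn into large secretory cells that make prolactin-like hormones, while vessels grow and natural killer cells enter. Progesterone drives this change, and bone morphogenetic protein and Wnt ligands act below it. The lining epithelium around the embryo is lost in the same days.

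Each array was an Illumina bead array read in 1 colour, and values below are background-corrected, quantile-normalized intensities on the log2 scale. Differences are log2 differences with their standard error (SE) from a limma fit to all 33 arrays. Adjusted p under 0.05 is the threshold for "rose" and "fell", and "changed" asks for a 2-fold difference as well. A probe that none of a group's arrays detected at p under 0.01 has only a bound there, written "at least N-fold" and taken against the lowest detected signal of those arrays or the probe's own signal if higher. Intensities of different probes are not compared with each other.

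Between 17410 and 18152 probes were detected on 5 of the non-pregnant arrays, 13097 on non-pregnant replicate 4, and 15040 to 17168 on the day 8 arrays. Replicate numbers are those of the deposited intensity columns. Matched by their values, 16 of the 33 arrays carry another number in the deposited series matrix. Non-pregnant replicates 4 and 6 here are replicates 6 and 5 there, and the day 8 numbers are the same. Non-pregnant replicates 4 and 6 stood apart from the other 4 in several gene lists. The mean over the 16 measured MHC class II and dendritic genes was 6.49 on replicate 4 and 7.85 to 8.23 on the other non-pregnant arrays, and that over 30 smooth muscle genes was 11.36 against 10.18 to 10.56. On replicate 6 the mean of 20 oestrogen-responsive genes was 7.14 against 9.57 to 10.71 on the other 5, and that of 23 gland secretory genes was 8.60 against 7.26 to 7.73. Values without one or both of these arrays are given beside gene differences, and beside some list counts, that moved by over 1.5 times. Other small list counts also moved and are not printed, such as oestrogen-responsive rises, from 1 to 2 without replicate 4. Pgr, Esr1 and the muscle gene Myh11, which mark uterine tissue, were detected on all 10 arrays. Non-pregnant replicates 2 and 3 were the nearest pair and were kept as separate samples, since the labels list them so.

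Tissue at day 8 differed from the non-pregnant uterus in 2310 of 10412 genes, 1133 higher (10.9%) and 1177 lower (11.3%). Counted without a fold minimum, 24.7% of genes rose and 26.2% fell. With median scaling in place of quantile normalization these shares were 15.9% and 15.1%, and list counts given below with median scaling are to be read against them. The 4 day 8 values lay wholly above the 6 non-pregnant values in 17.9% of genes and wholly below them in 15.8%. Leaving out 1 array at a time gave 2234 to 2405 changed genes.

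Prl8a2, a prolactin-like hormone of the decidua, had the largest rise. Its day 8 values were 13.92, 13.97, 13.89 and 14.03, and its non-pregnant values had a lowest of 4.58, a median of 4.62 and a highest of 5.85, with no non-pregnant array detecting it. Day 8 was at least 409.8-fold higher (adjusted p = 9.01e-25). Slc6a12, a betaine and GABA transporter, read 13.18, 13.41, 13.30 and 13.28 at day 8 against 4.39, 4.66 and 4.99 (lowest, median, highest) in non-pregnant uterus. It too was undetected on all 6 non-pregnant arrays and was at least 259.7-fold higher at day 8 (adjusted p = 1.32e-24). Both genes were level among the 4 day 8 arrays and far from any non-pregnant array.

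**Figure D1:**
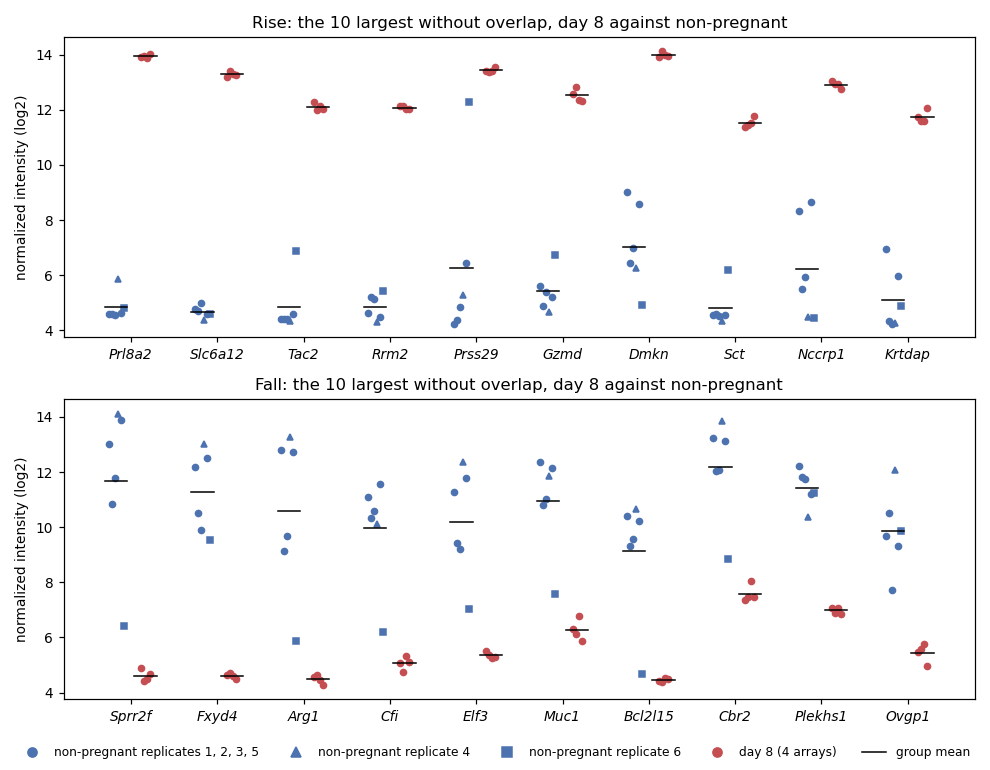
Normalized log2 intensity on each array for the 10 largest rises (top) and the 10 largest falls (bottom) without overlap between groups; each symbol is 1 array, the bar is the group mean, and non-pregnant replicates 4 and 6 have their own symbols. The day 8 values of each gene lie close together, while Prss29 in non-pregnant uterus runs from 4.25 to 12.28 and Sprr2f from 6.43 to 14.12, with replicate 6 at the day 8 side of both.

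Proteins better known from skin also stood among the largest rises. Dmkn (dermokine, a secreted protein of skin epithelium) read 13.90 to 14.14 at day 8 against 4.91, 6.71 and 9.01 in non-pregnant uterus, a difference of 6.97 (SE 0.59, adjusted p = 3.28e-11). Krtdap (keratinocyte differentiation-associated protein) read 11.59 to 12.06 against 4.25, 4.62 and 6.94, higher by 6.64 (SE 0.47, adjusted p = 6.2e-13). Nccrp1, an F-box family protein, was higher by 6.69 (SE 0.66, adjusted p = 8.7e-10). For Dmkn and Nccrp1 the non-pregnant arrays were themselves spread over more than 4 log2 units, and without non-pregnant replicates 4 and 6 the differences were 6.25 and 5.81.

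Among the 10 largest falls without overlap, Sprr2f, Fxyd4, Arg1, Elf3 and Muc1 belong to the epithelial or oestrogen-responsive lists. Fxyd4, a regulator of the sodium pump, read 4.62, 4.72, 4.61 and 4.50 at day 8 and had a lowest of 9.54 and a median of 11.33 in non-pregnant uterus. No day 8 array detected it, and non-pregnant tissue was at least 60.5-fold higher (adjusted p = 1.83e-10). Sprr2f, a small proline-rich protein induced by oestrogen, read 4.41 to 4.89 at day 8 against 6.43, 12.39 and 14.12, and was at least 80.3-fold higher in non-pregnant uterus (adjusted p = 2.8e-05). Plekhs1 fell by 4.45 (SE 0.49, adjusted p = 6.24e-09) and Ovgp1, the oviduct glycoprotein, by 4.42 (SE 0.51, adjusted p = 1.87e-08). Replicate 6 was the lowest non-pregnant array for Fxyd4 and Sprr2f, and also for Elf3 (an epithelial ETS factor) and Cbr2 (a carbonyl reductase). Without it the fitted difference moved from -7.06 to -8.11 for Sprr2f, from -4.82 to -5.46 for Elf3 and from -4.61 to -5.28 for Cbr2, all still at adjusted p under 0.05.

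**Figure D2:**
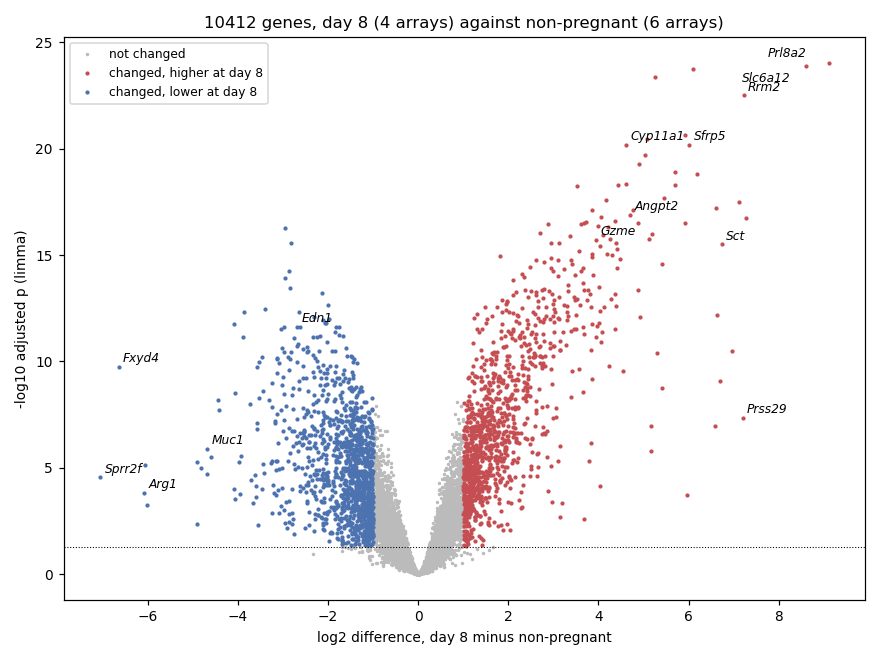
Log2 difference (day 8 minus non-pregnant) against the -log10 adjusted p of limma for 10412 genes; coloured points changed at 2-fold and the dotted line marks adjusted p of 0.05. Prl8a2, Slc6a12 and Rrm2 lie at the far right, and the widest falls, such as Sprr2f and Arg1, have larger adjusted p-values than rises of the same size.

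Gene lists by function moved in both directions. A list is described by its measured members and its median difference, beside the median of -0.0177 over all genes tested. Its rises and falls are to be read against the 24.7% and 26.2% of all genes. A member undetected on every array of 1 group was kept only because other arrays detected it, so its direction was partly fixed. On non-pregnant arrays this held for 5 of 23 decidual stroma, 4 of 22 natural killer and 3 of 21 mitosis genes. On day 8 arrays it held for 7 of 20 oestrogen-responsive and 6 of 24 epithelium genes. Over all 10412 genes the counts were 643 on non-pregnant and 1088 on day 8 arrays. More than 3 in 4 measured genes rose in the S phase, mitosis and chaperone lists, and more than 3 in 4 fell in the epithelium, oestrogen, MHC class II and adipose lists. In whole tissue, fewer cells of a type and less RNA per cell cannot be told apart.

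**Figure D3:**
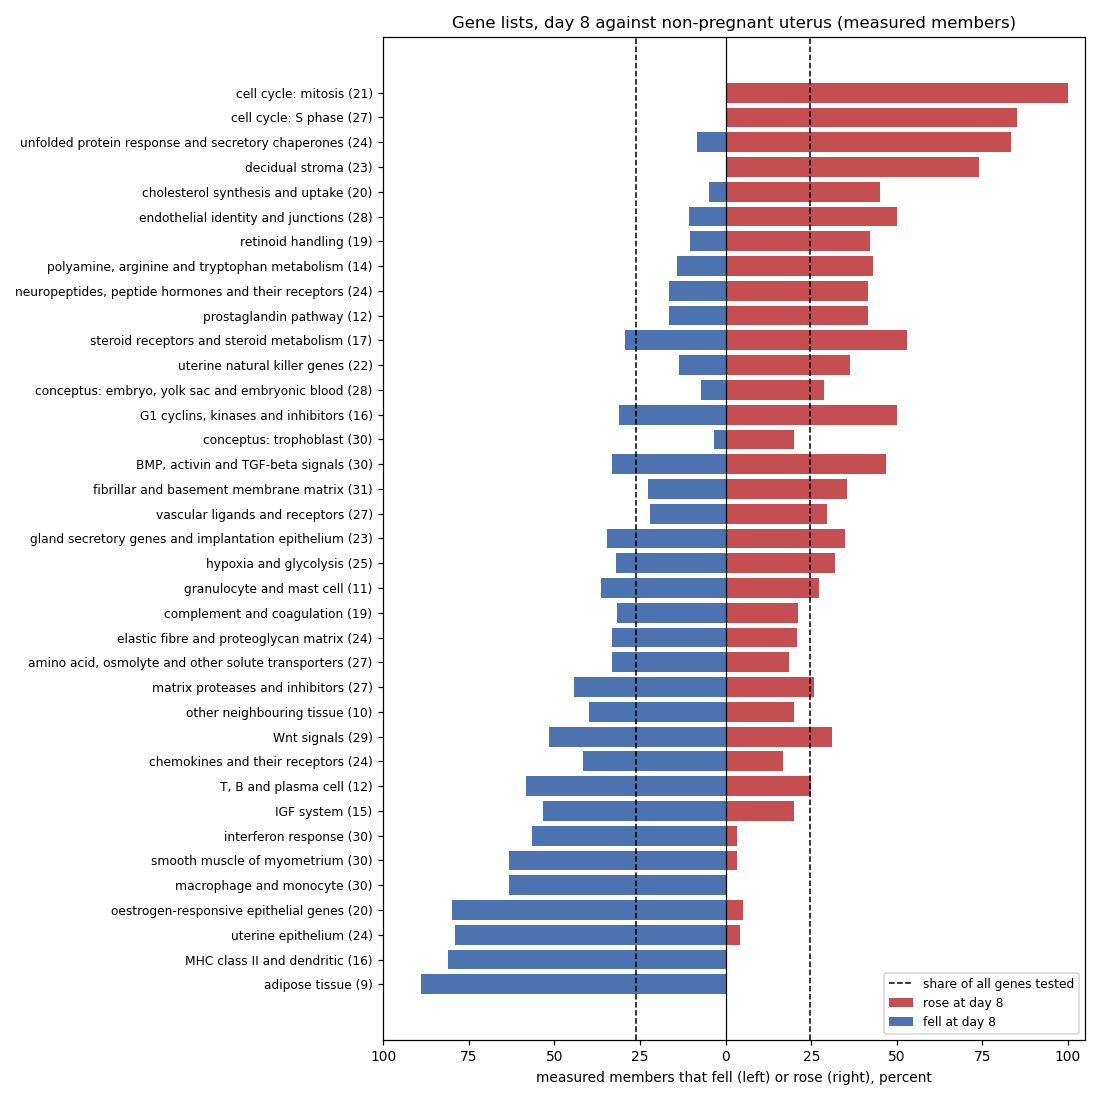
Percent of each list's measured members that rose (right) or fell (left) at day 8, with the number measured in parentheses; dashed lines are the shares of all genes tested, 24.7% and 26.2%. The lists at the top and bottom extend far past the dashed lines on 1 side, and BMP, Wnt and steroid genes extend on both.

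Of 23 measured genes of decidual stroma 17 rose, none fell and 6 did not pass, with a median of 2.14. The list mean was 9.68 to 9.94 on the day 8 arrays and 7.08 to 7.45 on the non-pregnant ones. Prl3c1, another decidual prolactin relative, read 10.42, 9.67, 10.09 and 10.17 against 4.24, 4.47 and 5.94, and was at least 28.2-fold higher (adjusted p = 2.72e-15). Genes of the prolactin family are alike in sequence and can share probe signal, so the identity of a single member is uncertain. Fst, follistatin, which binds activin, was higher by 5.41 (SE 0.56, adjusted p = 1.83e-09) and by 6.00 without non-pregnant replicate 6. Gja1, the gap junction protein connexin 43, read 14.13 to 14.35 against 11.72, 12.05 and 12.70, higher by 2.14 (SE 0.17, adjusted p = 9.67e-12). Hand2, a stromal transcription factor induced by progesterone, rose by 2.13 (SE 0.28, adjusted p = 2.43e-07). Hoxa10, a homeobox factor needed for decidualization, was higher by 0.78 (SE 0.30, adjusted p = 0.0316). That call was lost on leaving out any of 6 arrays (day 8 replicates 1, 2 and 4 and non-pregnant replicates 1, 4 and 5, adjusted p of 0.0528 to 0.0774). Hoxa10 also did not pass without background correction (0.22, adjusted p = 0.0521) or with the deposited series matrix values (0.21, adjusted p = 0.0573). Nor did it pass with median scaling (0.60, adjusted p = 0.16) or array weights (0.33, adjusted p = 0.13). Hoxa11 (0.73, adjusted p = 0.0728), Alpl, alkaline phosphatase (-0.08, adjusted p = 0.944), and Nr2f2, COUP-TFII (-0.44, adjusted p = 0.108), did not pass. Hoxa11 passed without non-pregnant replicate 6 (0.90, adjusted p = 0.0273) and Nr2f2 without non-pregnant replicate 4 (-0.59, adjusted p = 0.0206) or on its second probe (-0.98, adjusted p = 0.00411).

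Steroid genes moved in both directions. Of 17 measured steroid receptor and metabolism genes 9 rose and 5 fell, with a median of 0.42. Without day 8 replicate 2 the counts were 6 and 3, and 3 fell also without non-pregnant replicate 5 or 6. Cyp11a1, the side chain cleavage enzyme that starts steroid synthesis, read 9.15, 9.26, 9.09 and 8.94 at day 8 and 4.43, 4.50 and 4.56 in non-pregnant uterus, where no array detected it. The difference was at least 14.3-fold (adjusted p = 6.55e-21), with narrow values in both groups. Hsd17b1, which turns oestrone into oestradiol, read 9.75, 9.51, 9.66 and 9.59 against 4.98, 5.83 and 6.21, higher by 3.85 (SE 0.21, adjusted p = 1.18e-15). Hsd11b1, which regenerates active glucocorticoid, read 11.83 to 11.91 against 6.89, 9.12 and 9.58, higher by 3.11 (SE 0.49, adjusted p = 4.63e-06). Fkbp5, a receptor co-chaperone induced by progesterone and glucocorticoid, was higher by 3.86 (SE 0.38, adjusted p = 6.39e-10), and by 4.52 without non-pregnant replicates 4 and 6. None of these 4 genes overlapped between the groups, but they were named as the largest rises of the list. Of all genes 17.9% lay wholly above at day 8.

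Pgr, the progesterone receptor, read 7.64, 7.99, 7.79 and 7.80 against 5.78, 6.62 and 7.24, a rise of 1.25 (SE 0.21, adjusted p = 8.52e-06). Esr1, oestrogen receptor alpha, was lower by 0.99 on the log2 scale in the fit (-0.99, SE 0.35, adjusted p = 0.0201). Its day 8 values of 7.50 to 7.81 overlapped the non-pregnant values of 7.73, 8.57 and 9.89, and it did not pass without non-pregnant replicate 4 (-0.75, adjusted p = 0.0601), without non-pregnant replicate 6 (-0.84, adjusted p = 0.0517) or without day 8 replicate 2 (-0.93, adjusted p = 0.0536). It also did not pass with only the 2 groups fitted (adjusted p = 0.0708) or with array weights (-0.39, adjusted p = 0.13). A second Esr1 probe did not pass either (-0.13, adjusted p = 0.694). Hsd17b11, a lipid droplet dehydrogenase, fell by 1.89 (SE 0.35, adjusted p = 4.1e-05) and Greb1, an oestrogen receptor cofactor, by 1.43 (SE 0.43, adjusted p = 0.0065). Hsd11b2, which inactivates glucocorticoid, did not pass (0.17, adjusted p = 0.786), but was higher by 0.96 without non-pregnant replicates 4 and 6 (adjusted p = 0.0113).

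The prostaglandin list held 5 rises and 2 falls among 12 measured genes (median 0.07), with 3 falls without non-pregnant replicate 4 and 3 rises with median scaling. Ptges, the inducible prostaglandin E synthase, read 10.20, 10.20, 10.02 and 10.02 against 4.40, 5.96 and 6.24, higher by 4.42 (SE 0.25, adjusted p = 3.86e-15). Slco2a1, the prostaglandin uptake transporter, was higher by 2.86 (SE 0.37, adjusted p = 1.81e-07) and Ppard, a nuclear receptor that prostacyclin can activate, by 1.61 (SE 0.18, adjusted p = 1.24e-08). Against these, Hpgd, which breaks prostaglandins down, read 6.39 to 6.83 against 8.17, 8.64 and 8.98 and fell by 2.01 (SE 0.36, adjusted p = 2.53e-05). Ptgis, prostacyclin synthase, fell by 1.51 (SE 0.24, adjusted p = 5.48e-06). None of these 5 genes overlapped between the groups, but they were named for the size of their change. Of all genes 17.9% lay wholly above and 15.8% wholly below at day 8.

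Of 19 measured retinoid genes 8 rose and 2 fell (median 0.25), and 5 rose without non-pregnant replicate 4 or without day 8 replicate 4. Aldh1a3, a retinoic acid synthase, was higher by 1.41 (SE 0.28, adjusted p = 0.000127) and Rarb, a retinoic acid receptor, by 1.37 (SE 0.26, adjusted p = 5.85e-05). Rarres2, the chemoattractant chemerin, fell by 1.18 (SE 0.22, adjusted p = 5.03e-05) but did not pass with median scaling (adjusted p = 0.0889), and its second probe went the other way (0.66, adjusted p = 0.0275). Stra6, the cell surface retinol transporter, rose by 1.78 (SE 0.52, adjusted p = 0.00518) with overlap, since non-pregnant replicates 2, 3 and 6 read 7.77, 7.98 and 7.55 beside day 8 values of 7.68 to 8.42. It did not pass with only the 2 groups fitted (adjusted p = 0.0582) or with array weights (0.67, adjusted p = 0.0692). Cyp26a1, which degrades retinoic acid, was detected on 4 of 4 day 8 arrays and 1 of 6 non-pregnant arrays and did not pass (1.15, adjusted p = 0.117). The 1 array was replicate 6, at 8.90, and without it Cyp26a1 was higher at day 8 by 1.86 (adjusted p = 0.000568).

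BMP ligands and inhibitors moved in both directions. Of 30 measured genes of BMP, activin and TGF-beta signalling 14 rose and 10 fell, with a median of 0.41. Bmp2, the BMP ligand required for decidualization in mice, read 7.56, 8.02, 7.58 and 8.09 against 4.24, 4.26 and 4.51, undetected in non-pregnant uterus and at least 5.82-fold higher at day 8 (adjusted p = 6.52e-13). Bmp8a read 10.38, 10.37, 10.33 and 10.12 against 4.28, 4.54 and 7.59, higher by 5.30 (SE 0.46, adjusted p = 3.92e-11). Chrd, chordin, which binds and blocks BMPs, was higher by 2.98 (SE 0.30, adjusted p = 1.16e-09). Bmp4 went the other way, reading 7.34 to 7.43 against 8.53, 8.86 and 9.50, and fell by 1.52 (SE 0.20, adjusted p = 2.67e-07). Bmpr1a, a type I BMP receptor, fell by 1.04 (SE 0.22, adjusted p = 0.000248), and its second probe did not pass (-0.44, adjusted p = 0.207). Tgfb3, a TGF-beta ligand, did not pass (0.20, adjusted p = 0.541). With median scaling 4 genes of the list fell.

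Wnt ligands moved in both directions as well. Among 29 measured Wnt genes 9 rose and 15 fell (median -0.68), and 9 fell with median scaling. Wnt6 read 10.05, 10.29, 10.34 and 10.54 at day 8 against 4.39, 5.10 and 6.20, higher by 5.18 (SE 0.26, adjusted p = 9.6e-17). Wnt10a, undetected in non-pregnant uterus, was at least 14.5-fold higher (adjusted p = 4.3e-19). Wnt4, a decidual ligand below Bmp2, rose by 2.28 (SE 0.46, adjusted p = 0.00013). Non-pregnant replicate 6 read 5.41 for Wnt4 and the other 5 read 8.47 to 9.46, and the rise was 1.69 without it. Sfrp5, a secreted Wnt inhibitor, read 10.44 to 10.52 against 4.37, 4.43 and 4.75 and stood at least 37.25-fold higher (adjusted p = 6.55e-21), and Notum, which removes the lipid of Wnt proteins, was higher by 3.84 (SE 0.32, adjusted p = 2.73e-11).

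Wnt7a, made by the lining epithelium, read 4.65, 4.36, 4.82 and 4.54 at day 8, all undetected, against 7.01, 7.33 and 9.37. It was at least 5.84-fold higher in non-pregnant uterus (adjusted p = 6.55e-09). Wnt16 was at least 3.35-fold higher there (adjusted p = 6.11e-07), and the receptor Fzd6 fell by 1.81 (SE 0.14, adjusted p = 2.49e-12).

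The IGF list had 3 rises and 8 falls among 15 measured genes, and 2 falls with median scaling. Igfbp2, which binds insulin-like growth factors, read 8.51 or more at day 8 against 4.38, 4.63 and 5.66, higher by 3.95 (SE 0.31, adjusted p = 7.14e-12). Igfbp3 was higher by 2.31 (SE 0.54, adjusted p = 0.000684). The receptors Igf1r and Igf2r fell by 0.99 (SE 0.26) and 0.91 (SE 0.17), at adjusted p of 0.00199 and 4.07e-05, and neither passed with median scaling (adjusted p of 0.0543 and 0.0911). Igf1 did not pass (0.13, adjusted p = 0.77), but was higher by 0.75 without non-pregnant replicates 4 and 6 (adjusted p = 0.00663).

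Peptide signals known from brain and gut were among the widest differences. In the list of 24 measured neuropeptides, peptide hormones and receptors, 10 rose and 4 fell. Tac2, the precursor of neurokinin B, read 12.28, 12.01, 12.15 and 12.03 at day 8 against 4.33, 4.41 and 6.90, higher by 7.27 (SE 0.33, adjusted p = 1.7e-17). Sct, secretin, read 11.39, 11.45, 11.51 and 11.79 against 4.34, 4.57 and 6.19, higher by 6.73 (SE 0.35, adjusted p = 3.09e-16). Npy, neuropeptide Y, read 9.13 to 9.64 against 4.34, 4.75 and 6.55, higher by 4.38 (SE 0.30, adjusted p = 2.54e-13). For all 3 the highest non-pregnant array was replicate 6, still well below every day 8 array.

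Drd4, a dopamine receptor, read 10.34, 9.86, 10.31 and 10.59 and was undetected in non-pregnant uterus, at least 32.1-fold higher at day 8 (adjusted p = 5.03e-19). Tacr1, a tachykinin receptor of the same list, was detected on 2 of 6 non-pregnant and 1 of 4 day 8 arrays and did not pass (0.23, adjusted p = 0.389). Among the falls, Edn1, the vasoconstrictor endothelin 1, read 6.86 to 7.09 against 9.15, 9.56 and 10.38 and fell by 2.70 (SE 0.20, adjusted p = 2.35e-12). Npr2, the receptor of C-type natriuretic peptide, fell by 1.56 (SE 0.22, adjusted p = 7.97e-07).

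Most cell cycle genes rose. In S phase 23 of 27 measured genes rose and none fell (median 1.36), and in mitosis all 21 measured genes rose (median 2.30). The mean over the mitosis list was 8.66 to 9.03 on the day 8 arrays and 6.40 to 7.40 on the non-pregnant ones. Rrm2, the regulated subunit of ribonucleotide reductase, read 12.15, 12.12, 12.04 and 12.02 against 4.32, 4.89 and 5.43, a difference of 7.22 (SE 0.20, adjusted p = 2.99e-23). Its partner subunit Rrm1 was higher by 3.45 (SE 0.23, adjusted p = 9.01e-14). Cdk1, the kinase that starts mitosis, read 9.48, 9.28, 9.50 and 9.77 against 6.18, 6.73 and 7.36, higher by 2.77 (SE 0.25, adjusted p = 1.12e-10). Top2a, the topoisomerase of dividing cells, was higher by 2.51 (SE 0.34, adjusted p = 3.98e-07), and the spindle motor Kif2c by 2.82 (SE 0.25, adjusted p = 5.41e-11). Pcna, the replication clamp, was detected on 2 of 6 and 3 of 4 arrays and did not pass (0.23, adjusted p = 0.601).

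Among G1 regulators 8 of 16 rose and 5 fell, and 4 rose and 3 fell with median scaling. Ccnd3, the D cyclin of polyploid decidua, was higher by 0.83 (SE 0.20, adjusted p = 0.000751) with overlap, while Ccnd2 fell by 1.32 (SE 0.26, adjusted p = 0.000112). Mdm2, which degrades p53, was higher by 1.53 (SE 0.15, adjusted p = 4.78e-10).

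Promoters of dividing-cell genes are shown because E2F factors and NF-Y are known to drive cell cycle genes through motifs in such windows. Windows were taken from RefSeq on GRCm38.p6, 250 bases before to 50 after the start site, and 8399 of 10412 tested genes matched by symbol. Capitals mark TTTNNCGC (E2F-type) and CCAAT (the NF-Y box), each searched on both strands, so that a reverse-strand CCAAT appears as ATTGG. Distances are from the start site to the first base of the match as printed. The 4 windows were chosen after the values and matches were seen, and Mcm5, a replicative helicase subunit, also lies outside the naming rule (day 8 10.76 to 10.95, non-pregnant 7.74, 8.80 and 10.05, higher by 1.95, SE 0.29, adjusted p = 1.37e-06).
Rrm2, chr12:24708004-24708303, plus strand: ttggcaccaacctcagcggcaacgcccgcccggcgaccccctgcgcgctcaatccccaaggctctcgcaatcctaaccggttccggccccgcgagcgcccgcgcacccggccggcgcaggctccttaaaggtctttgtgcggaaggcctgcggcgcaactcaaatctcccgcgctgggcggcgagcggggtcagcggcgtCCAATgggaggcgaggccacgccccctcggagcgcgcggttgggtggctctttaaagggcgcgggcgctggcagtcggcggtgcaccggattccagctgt
Mcm5, chr8:75109259-75109558, plus strand: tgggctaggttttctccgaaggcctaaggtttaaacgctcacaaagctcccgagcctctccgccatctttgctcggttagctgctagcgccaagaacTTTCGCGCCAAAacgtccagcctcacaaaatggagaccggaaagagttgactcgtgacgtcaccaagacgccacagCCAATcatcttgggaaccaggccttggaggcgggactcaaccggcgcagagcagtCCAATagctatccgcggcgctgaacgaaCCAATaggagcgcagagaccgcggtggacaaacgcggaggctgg
Cdk1, chr10:69352863-69353162, minus strand: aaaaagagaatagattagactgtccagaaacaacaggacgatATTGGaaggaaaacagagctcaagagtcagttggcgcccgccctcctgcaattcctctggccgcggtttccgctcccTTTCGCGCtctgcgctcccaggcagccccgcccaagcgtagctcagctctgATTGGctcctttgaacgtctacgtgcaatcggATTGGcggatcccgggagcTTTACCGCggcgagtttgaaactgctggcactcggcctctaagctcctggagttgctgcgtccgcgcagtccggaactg
Top2a, chr11:99024140-99024439, minus strand: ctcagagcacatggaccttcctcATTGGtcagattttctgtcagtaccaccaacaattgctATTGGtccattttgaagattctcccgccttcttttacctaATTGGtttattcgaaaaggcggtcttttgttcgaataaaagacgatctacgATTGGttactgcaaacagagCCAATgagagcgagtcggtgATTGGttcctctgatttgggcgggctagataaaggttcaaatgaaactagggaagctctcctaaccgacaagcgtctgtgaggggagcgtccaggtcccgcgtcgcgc
The Mcm5 window holds 2 overlapping E2F-type matches, and the Top2a window holds 6 CCAAT boxes. The Rrm2 window holds 1 CCAAT box, and neither Rrm2 nor Top2a has an E2F-type match. An E2F-type match stood in 8 of 18 windows of S phase genes that rose (44.4%) and in 2 of 18 of mitosis genes that rose (11.1%). It stood in 8.26% of windows of tested genes and in 5.27% of the 27025 windows used, 1 per gene. CCAAT stood in 13 of 18 windows of the mitosis genes (72.2%), 9 of 18 of the S phase genes and 37.9% of tested genes. Among S phase genes that did not pass, the E2F-type motif stood in 1 of 4 windows (25%). None of the 12 windows of decidual stroma genes that rose held it, and none of the 5 of those that did not pass. With so few windows and a share of 8.26% over tested genes, that is not read as a difference. A match is a run of letters, and binding was not measured.

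Secretory and metabolic genes rose on several lists. Of 24 genes of the unfolded protein response and secretory chaperones 20 rose and 2 fell (median 1.01). The list mean was 9.59 to 9.64 on the day 8 arrays and 8.38 to 8.71 on the non-pregnant ones. A single gene fell without any one of 7 of the 10 arrays, and none with median scaling. Sdf2l1, an endoplasmic reticulum stress protein, was higher by 2.57 (SE 0.23, adjusted p = 5.84e-11), and Calr, the calcium-binding chaperone calreticulin, read 10.57, 10.43, 10.33 and 10.26 against 8.17, 8.27 and 8.73, higher by 2.05 (SE 0.40, adjusted p = 9.26e-05). Herpud1, which helps remove misfolded proteins, fell by 0.61 (SE 0.13, adjusted p = 0.000221) but did not pass with median scaling. Of 20 cholesterol genes 9 rose and 1 fell (median 0.72). Lss, lanosterol synthase, read 10.24, 9.72, 9.83 and 9.68 against 5.57, 5.94 and 6.77, higher by 3.87 (SE 0.23, adjusted p = 8.5e-15), and Sqle, squalene epoxidase, was higher by 2.19 (SE 0.31, adjusted p = 6.17e-07).

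Arginine enzymes moved in opposite directions. Arg1, arginase 1, read 4.58, 4.63, 4.46 and 4.28 at day 8, all undetected, against 5.88, 11.20 and 13.25, and was at least 37.5-fold higher in non-pregnant uterus (adjusted p = 0.000147, fitted difference -6.09 and -7.03 without replicate 6). Ass1, which makes argininosuccinate on the way to arginine, read 12.08, 11.45, 11.56 and 11.53 against 6.54, 7.49 and 10.24, higher by 3.83 (SE 0.54, adjusted p = 6.74e-07). Srm, spermidine synthase, was higher by 2.18 (SE 0.29, adjusted p = 2.39e-07). Tdo2, which degrades tryptophan, read 6.71, 6.17, 7.30 and 7.95 and was undetected in non-pregnant uterus, at least 3.39-fold higher (adjusted p = 2.29e-06).

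Among 27 transporters of amino acids, osmolytes and other solutes 5 rose and 9 fell. Besides Slc6a12, the taurine transporter Slc6a6 was higher by 1.48 (SE 0.18, adjusted p = 4.28e-08). The iron exporter Slc40a1 fell by 3.45 (SE 0.56, adjusted p = 6.81e-06), and the glutamate transporter Slc1a1, at 6.03 to 6.58 against 8.39, 8.81 and 10.49, fell by 2.70 (SE 0.33, adjusted p = 4.86e-08). In the hypoxia and glycolysis list 8 rose and 8 fell of 25, and 4 fell with median scaling. Epas1, the hypoxia-inducible factor HIF-2 alpha, was higher by 3.53 (SE 0.23, adjusted p = 1.16e-13) and the glucose transporter Slc2a1 by 2.17 (SE 0.30, adjusted p = 4.06e-07), while lactate dehydrogenase Ldha did not pass (-0.04, adjusted p = 0.86).

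Vessel genes rose in part. Endothelial identity and junction genes rose in 14 of 28 and fell in 3 (median 0.54), and fell in 5 without non-pregnant replicate 4. The list mean of non-pregnant replicate 6, 9.40, lay above every day 8 array (9.17 to 9.31), and the other 5 non-pregnant arrays read 8.32 to 8.72. Cdh5, the endothelial cadherin, was higher by 1.95 (SE 0.28, adjusted p = 1.05e-06), and Sox17, an endothelial and epithelial transcription factor, fell by 1.56 (SE 0.24, adjusted p = 2.98e-06). Of the 27 ligands and receptors 8 rose (29.6%) and 6 fell (22.2%), near the 24.7% and 26.2% of all genes. In this list 4 fell without day 8 replicate 2 or 3, and 6 rose and 2 fell with median scaling. Angpt2, which loosens vessels for sprouting, read 12.94, 12.97, 13.18 and 13.05 against 7.73, 8.21 and 9.13, higher by 4.69 (SE 0.21, adjusted p = 1.23e-17), and Angpt4 was higher by 4.91 (SE 0.35, adjusted p = 8.2e-13). Pdgfa, a platelet-derived growth factor, fell by 2.16 (SE 0.21, adjusted p = 6.04e-10). Vegfa did not pass on its brightest probe (0.18, adjusted p = 0.608), and its second probe read 0.61 (adjusted p = 0.0212). Kdr, the main VEGF receptor, did not pass (0.04, adjusted p = 0.88) and was detected on 4 of 6 and 1 of 4 arrays.

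Matrix genes did not move as a body. In fibrillar and basement membrane matrix 11 of 31 rose and 7 fell, and in elastic fibres and proteoglycans 5 of 24 rose and 8 fell. With median scaling 3 and 5 fell, and without day 8 replicate 1 the first list had 4 falls. Eln, elastin, read 10.92, 10.92, 11.03 and 10.65 against 6.72, 7.69 and 9.59, higher by 3.06 (SE 0.35, adjusted p = 1.47e-08) and by 3.65 without non-pregnant replicates 4 and 6, and Lamc1, a laminin chain, by 2.54 (SE 0.20, adjusted p = 4.24e-12). Thbs2, thrombospondin 2, fell by 2.52 (SE 0.33, adjusted p = 1.59e-07, and -3.20 without both arrays). Proteases and inhibitors fell in 12 of 27 and rose in 7, and 7 fell with median scaling. Timp1, a metalloprotease inhibitor, read 11.06 to 11.26 against 7.96, 8.05 and 9.12, higher by 2.77 (SE 0.18, adjusted p = 1.09e-13). Mmp11, stromelysin 3, fell by 4.09 (SE 0.81, adjusted p = 9.5e-05) with overlap. Non-pregnant replicate 4 read 6.52 for Mmp11 and the difference was -4.93 without it and -5.86 without replicates 4 and 6.

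The epithelial markers were lower at day 8 by the widest list medians. Of 24 measured genes of uterine epithelium 19 fell and 1 rose (median -2.19). Krt8, a simple-epithelium keratin, read 8.11, 8.19, 7.84 and 7.68 against 10.00, 11.44 and 12.65 and fell by 3.53 (SE 0.38, adjusted p = 5.31e-09). Cdh1, E-cadherin, read 6.08 to 6.75 against 8.35, 8.97 and 10.38 and fell by 2.79 (SE 0.32, adjusted p = 1.63e-08), and Muc1, the mucin of the luminal surface, fell by 4.69 (SE 0.69, adjusted p = 1.31e-06, -5.37 without replicate 6). The tight junction gene Cldn1 was the member that rose, at 9.45, 9.22, 8.89 and 9.21 against 4.41, 7.07 and 8.28 (2.23, SE 0.49, adjusted p = 0.000333, and 1.63 without non-pregnant replicates 4 and 6).

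Oestrogen-responsive epithelial genes fell in 16 of 20 and rose in 1 (median -2.45). Ltf, lactotransferrin, read 7.22, 7.19, 8.83 and 7.74 at day 8. Among non-pregnant arrays it read 14.69 to 14.93 on 5 and 8.67 on replicate 6, so that the groups overlapped through that array. The difference was -6.07 (SE 0.99, adjusted p = 7.01e-06) with it and -7.10 without it. Without replicate 6, 17 of the 20 genes fell.

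Gland and implantation genes split evenly, 8 rising and 8 falling of 23. The implantation serine proteases Prss28 and Prss29 were higher by 6.59 (SE 0.84, adjusted p = 1.09e-07) and 7.20 (SE 0.87, adjusted p = 4.33e-08). Non-pregnant replicate 6 read 10.91 for Prss28 and the other 5 read 4.34 to 4.98, and for Prss29 it read 12.28 against 4.25 to 6.45. Without replicate 6 the differences were 7.65 and 8.40. Spink1, a trypsin inhibitor of glands, read 12.35 to 12.95 at day 8 and 13.92 on replicate 6, above every day 8 array, against 4.34 to 8.40 on the other 5 (5.97, SE 1.24, adjusted p = 0.000185, and 7.40 without replicate 6). Sgk1, a kinase of ion transport, was higher by 3.12 (SE 0.16, adjusted p = 2.65e-16). Sox9, a gland transcription factor, read 7.72 to 7.85 against 9.86, 11.22 and 11.60 and fell by 3.10 (SE 0.28, adjusted p = 1.12e-10), and Msx1, a homeobox gene switched off at implantation, fell by 3.89 (SE 0.31, adjusted p = 7.23e-12).

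Smooth muscle genes were lower but present. Of 30 measured myometrial genes 19 fell and 1 rose (median -0.68), and 12 fell with median scaling. The list mean was 9.59 to 10.01 at day 8 and 10.18 to 11.36 in non-pregnant uterus. Myh11, smooth muscle myosin, read 11.93, 11.73, 11.75 and 11.08 against 12.54, 12.86 and 13.74 and fell by 1.35 (SE 0.28, adjusted p = 0.000214), and Myl9, its regulatory light chain, by 1.62 (SE 0.20, adjusted p = 1.07e-07). Mrvi1, a calcium regulator, fell by 1.87 (SE 0.19, adjusted p = 1.23e-09). Des, desmin, which decidual cells also make in rodents, was the member that rose (1.28, SE 0.20, adjusted p = 2.98e-06). Acta2, smooth muscle actin, did not pass on its brightest probe (0.02, adjusted p = 0.909) with a day 8 mean of 14.87 ± 0.15 (SD, n = 4) against 14.67, 14.84 and 15.08, while its other 3 probes read -0.97, -0.93 and -0.62 (adjusted p of 0.0677, 0.0445 and 0.0244).

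**Figure D4:**
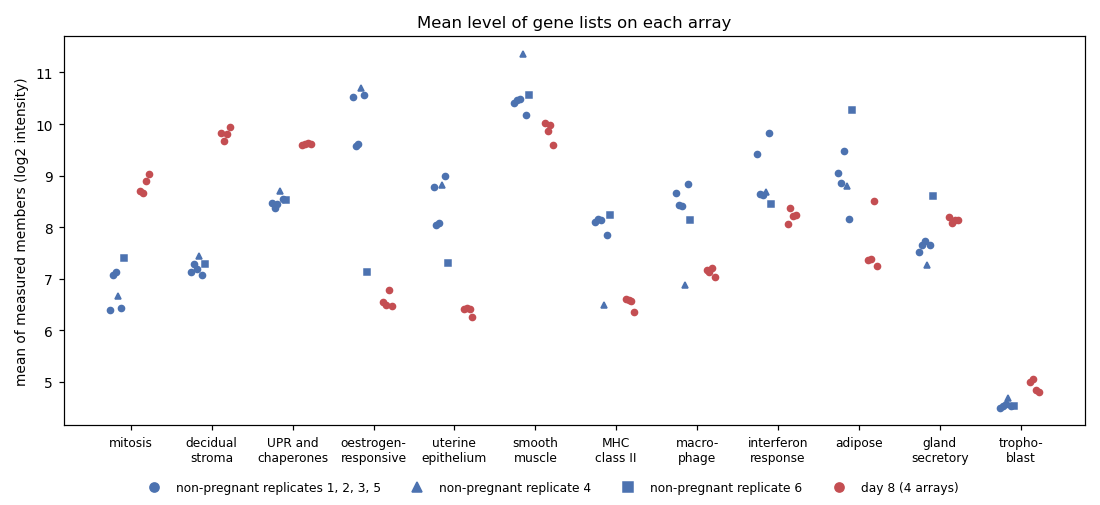
Mean log2 intensity of 12 gene lists on each array, with blue for non-pregnant (triangle replicate 4, square replicate 6) and red for day 8. Replicate 4 lies at 6.49 for MHC class II and 6.88 for macrophage genes, near the day 8 arrays, and replicate 6 at 7.14 for oestrogen-responsive genes.

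Of 22 measured natural killer genes 8 rose and 3 fell (median 0.31). The list mean was 7.05 to 7.33 at day 8 and 6.27 to 6.54 on 4 non-pregnant arrays, but 7.32 on replicate 6, within the day 8 range, and 5.36 on replicate 4. Without both of these arrays the counts were again 8 and 3. Gzmd, a granzyme of uterine natural killer cells, read 12.57, 12.85, 12.36 and 12.32 against 4.66, 5.29 and 6.73, higher by 7.11 (SE 0.30, adjusted p = 3.1e-18), and by 4.01 on its second probe. Gzme read 8.39, 9.09, 7.92 and 8.16 and was undetected in non-pregnant uterus, at least 8.68-fold higher (adjusted p = 1.9e-16), and Gzmg was at least 4.45-fold higher (adjusted p = 1.02e-12). Gzmf was undetected on all 10 arrays and did not pass (0.27, adjusted p = 0.206). These granzymes are close in sequence and can share probe signal. Prf1, perforin, did not pass on its brightest probe (0.16, adjusted p = 0.638), while its second probe was higher by 3.02 (adjusted p = 4.98e-11), so the 2 probes disagree. Il15, the cytokine that supports these cells, was higher by 1.00 (SE 0.25, adjusted p = 0.00146).

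Markers of macrophages and antigen presentation were lower. Of 30 macrophage genes 19 fell and none rose (median -1.03), and 24 fell without non-pregnant replicate 4. Adgre1, the macrophage antigen F4/80, fell by 2.03 (SE 0.37, adjusted p = 3.95e-05), with a second probe that did not pass (-0.45, adjusted p = 0.101). Cd14, a receptor for bacterial lipopolysaccharide, read 7.24 to 7.77 against 8.47, 9.85 and 11.33 (-2.35, SE 0.43, adjusted p = 3.65e-05, and -2.97 without non-pregnant replicates 4 and 6). Csf1r, the receptor of the macrophage growth factor, did not pass (-0.06, adjusted p = 0.908). The MHC class II and dendritic list had 13 falls and no rise among 16 genes (median -1.38), and 15 falls without replicate 4. H2-Aa, a class II chain, read 6.75, 6.42, 6.63 and 6.30 against 7.49, 9.54 and 10.15 (-2.73, SE 0.46, adjusted p = 1.14e-05). The lowest non-pregnant value of H2-Aa was that of replicate 4, and the difference was -3.09 without it.

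Chemokine genes fell in 10 of 24 and rose in 4, and 16 fell without non-pregnant replicate 4. Cxcl16 fell by 2.98 (SE 0.36, adjusted p = 5.52e-08). Cxcl14 went up, at 12.25 to 12.70 against 7.88, 9.72 and 11.35 (2.66, SE 0.40, adjusted p = 1.91e-06, and 1.95 without non-pregnant replicates 4 and 6). Cxcl9 (-0.81, adjusted p = 0.101) and Cxcl10 (-0.57, adjusted p = 0.12), which attract T cells, did not pass, and both fell without non-pregnant replicate 4 (-1.19, adjusted p = 0.00469, and -0.82, adjusted p = 0.012). In the granulocyte and mast cell list 3 of 11 rose and 4 fell, with 6 falling without non-pregnant replicate 4. S100a8, an alarmin of neutrophils that stromal cells can also make, read 12.05, 12.61, 12.15 and 11.94 against 4.32, 6.32 and 10.66, higher by 5.18 (SE 0.77, adjusted p = 1.64e-06). Non-pregnant replicates 2 and 3 read 10.04 and 10.66 for S100a8, and the rise was 5.78 or 5.90 without either. It was 3.85 without non-pregnant replicates 4 and 6, which read 4.42 and 4.32.

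Interferon response genes fell in 17 of 30 and rose in 1 (median -0.59). The list mean was 8.06 to 8.37 at day 8, 9.42 and 9.82 on non-pregnant replicates 1 and 5, and 8.45 to 8.68 on the other 4. With median scaling 7 of the list fell, beside 15.1% of all genes. Oasl2, an oligoadenylate synthase-like antiviral protein, read 8.39, 8.40, 8.72 and 8.43 against 9.55, 10.26 and 11.37 (-1.83, SE 0.32, adjusted p = 1.96e-05), and Ifi27l2a fell by 2.19 (SE 0.29, adjusted p = 3.18e-07). Isg15, the ubiquitin-like interferon product, did not pass (0.75, adjusted p = 0.115), but was higher by 1.12 without non-pregnant replicate 5 (adjusted p = 0.00632). The promoters of Igtp and Gbp2, interferon-induced GTPases outside the naming rule and chosen after their values and matches were seen, are shown with the interferon response element in capitals. It was searched on both strands as GAAA followed after any 2 bases by GAAA, and a reverse-strand match appears as 2 runs of TTTC. Igtp read 7.96 to 8.31 against 8.62, 9.12 and 9.84 (-1.06, SE 0.19, adjusted p = 3.32e-05), and Gbp2 read 9.92 to 10.26 against 10.33, 11.07 and 11.76 (SE of the difference 0.27, adjusted p = 0.00288). A second probe of Gbp2 did not pass (-0.39, adjusted p = 0.126). With median scaling neither passed, at adjusted p of 0.0685 and 0.217.
Igtp, chr11:58199306-58199605, plus strand: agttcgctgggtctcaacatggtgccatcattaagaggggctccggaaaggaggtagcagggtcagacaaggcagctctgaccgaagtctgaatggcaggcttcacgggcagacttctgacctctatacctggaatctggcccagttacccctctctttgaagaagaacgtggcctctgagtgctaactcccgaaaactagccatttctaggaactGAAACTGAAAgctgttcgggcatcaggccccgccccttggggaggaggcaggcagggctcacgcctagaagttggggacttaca
Gbp2, chr3:142620413-142620712, plus strand: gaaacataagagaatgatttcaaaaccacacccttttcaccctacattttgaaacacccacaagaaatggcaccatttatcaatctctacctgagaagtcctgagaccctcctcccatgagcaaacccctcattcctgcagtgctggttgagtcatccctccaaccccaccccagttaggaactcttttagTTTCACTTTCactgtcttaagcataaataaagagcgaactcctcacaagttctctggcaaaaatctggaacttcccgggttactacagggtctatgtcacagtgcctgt
The match lay 34 bases before the start site in Igtp and 59 before it in Gbp2, counted to its first base. The motif stood in 6 of 13 windows of the interferon genes that fell (46.2%) and in 6 of 10 of those that did not pass (60%), against 3.02% of tested genes, so it marked members of the list whether or not they fell.

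Markers of other tissues were measured beside these groups. Of 30 trophoblast genes, 28 were undetected on every non-pregnant array and 24 on every day 8 array. In this list 6 rose (20%, beside 24.7% of all genes) and 1 fell, Psg23, a pregnancy-specific glycoprotein (-0.96, SE 0.20, adjusted p = 0.000243). The genes undetected at day 8 were kept only because arrays of other groups detected them. The share that rose was thus partly fixed by the filter and is not read as low. The mean over the list was 4.80 to 5.06 at day 8 and 4.50 to 4.68 in non-pregnant uterus. Prl4a1, a placental prolactin relative, read 9.02, 9.03, 8.10 and 7.83 and stood at least 9.33-fold higher (adjusted p = 1.69e-17), and a second gene, Plac1 (a trophoblast surface protein), stood at least 5.36-fold higher (adjusted p = 9.85e-15). Of 28 embryo, yolk sac and embryonic blood genes 8 rose (28.6%, beside 24.7% of all genes) and 2 fell. The same limit holds here, since 13 of the 28 were undetected on every day 8 array. Among those that rose, Apoa1, the apolipoprotein of yolk sac and liver, stood at least 2.26-fold higher (adjusted p = 4.94e-13). In this list 5 rose without day 8 replicate 2, and 4 with median scaling or without background correction. Afp, alpha-fetoprotein, and Hbb-y, an embryonic globin, were undetected in both groups. Of 9 adipose genes 8 fell and none rose (median -1.48). Adipoq, adiponectin, read 6.03, 5.77 and 5.63 on day 8 replicates 1, 2 and 4 and 8.65 on replicate 3, against 7.28, 9.21 and 11.91 (-2.95, SE 0.84, adjusted p = 0.00408, and -3.66 without day 8 replicate 3). The part of these tissues in the other results was not tested.

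Day 8 was then set against the days on either side. Against day 6, 10% of genes were higher and 10.2% lower, and 5.04% and 1.59% with median scaling. At 2-fold 411 were higher and 241 lower, which is 63% higher, and 79.1% were higher with median scaling. Day 6 replicate 4 had 13149 probes detected, against 16561 to 17491 on the other day 6 arrays. Without it 653 genes differed from day 6 at 2-fold, and 544 of them were among the 652 that differed with it. Against day 8, 10% of genes were higher at day 10 and 8.04% lower, and 5.11% and 2.52% with median scaling. The 3 comparisons share the day 8 arrays, so each is given with its own values.

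A few genes appeared between day 6 and day 8. Aldh3a1, an aldehyde dehydrogenase, had a mean of 5.27 ± 0.77 (SD, n = 6) in non-pregnant uterus, 4.69 ± 0.42 (n = 6) at day 6, 9.55 ± 0.32 (n = 4) at day 8 and 8.21 ± 0.14 (n = 4) at day 10. Day 8 was higher than day 6 by 4.86 (SE 0.28, adjusted p = 2.11e-14). Ntn5, of the netrin family, and Cbln1, a synapse organizer of the cerebellum, were higher than at day 6 by 4.77 (SE 0.31, adjusted p = 2.83e-13) and 4.74 (SE 0.29, adjusted p = 6.73e-14). Cbln1 was undetected in non-pregnant uterus, at least 72.1-fold lower than day 8 (adjusted p = 6.3e-18), and by day 10 it had dropped by 3.31 (SE 0.32, adjusted p = 1.06e-09). Kash5, known from meiosis, was higher than at day 6 by 4.56 (SE 0.26, adjusted p = 1.06e-14) and higher again at day 10, with means of 9.71 ± 0.26 (n = 4) and 11.21 ± 0.06 (n = 4) on days 8 and 10 (adjusted p = 0.000189).

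Gpnmb, a glycoprotein of macrophages and bone cells, read 13.27, 13.37, 13.30 and 12.87 at day 8 and had a mean of 8.77 ± 0.52 (SD, n = 6) at day 6, a difference of 4.43 (SE 0.82, adjusted p = 0.000171). Its non-pregnant values ran from 4.67 to 12.04. The rise against non-pregnant uterus was 3.14 (SE 0.82, adjusted p = 0.00199), 2.06 without non-pregnant replicate 4 and 1.34 without replicates 4 and 6. It did not pass with only the 2 groups fitted (adjusted p = 0.0734), and its other probes were higher by 1.36 and 0.76 (adjusted p = 7.82e-08 and 0.00453).

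**Figure D5:**
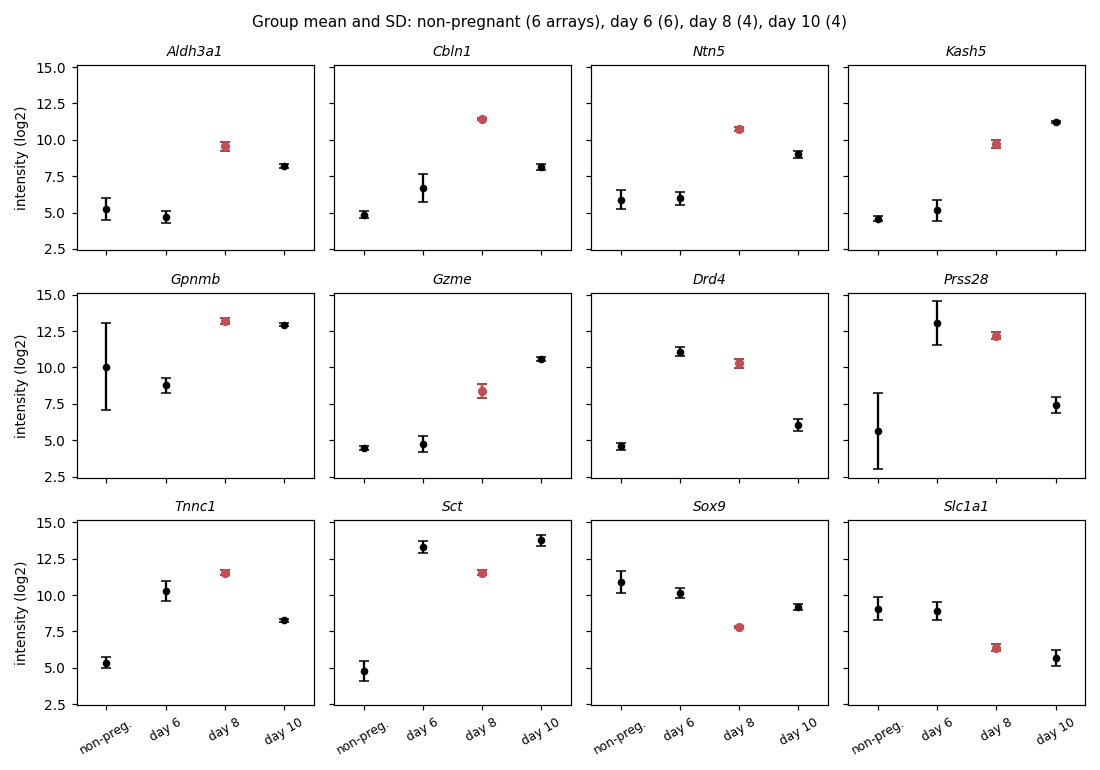
Mean ± SD of log2 intensity in non-pregnant uterus and at days 6, 8 and 10 for 12 genes, with day 8 in red. Aldh3a1, Cbln1 and Ntn5 are highest at day 8, Kash5 and Gzme are higher again at day 10, Drd4 and Prss28 drop after day 8, and Sct is lower at day 8 than at days 6 and 10.

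Other genes were already high at day 6. Drd4 had means of 11.09 ± 0.31 (n = 6) at day 6 and 10.27 ± 0.31 (n = 4) at day 8 (-0.82, SE 0.23, adjusted p = 0.00969), a difference that did not pass without day 8 replicate 2 (adjusted p = 0.0594), with median scaling (adjusted p = 0.145) or with cyclic loess (adjusted p = 0.0561). It dropped by 4.23 (SE 0.25, adjusted p = 8.92e-15) to day 10. Prss28, Prss29 and Tnnc1 (a troponin of heart and slow muscle) differed by -4.79, -3.91 and -3.28 from day 8 to day 10, at adjusted p of 0.000223, 0.00321 and 1.11e-11. Sct had means of 13.32 ± 0.41 (n = 6) at day 6, 11.53 ± 0.18 (n = 4) at day 8 and 13.76 ± 0.36 (n = 4) at day 10, lower at day 8 than on both sides. Spaca7, a sperm acrosome protein, was lower than at day 6 by 2.78 on the log2 scale (-2.78, SE 0.18, adjusted p = 3.75e-13), and Sox9 and Slc1a1 were lower by 2.35 and 2.52 (-2.35 and -2.52, adjusted p = 1.48e-07 and 7.61e-07).

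Counts for the lists are given for each step. Over all genes 10% were above and 10.2% below day 6, and by day 10, 10% were above and 8.04% below day 8. The list counts of these steps were not repeated without day 6 replicate 4, which detected fewer probes than the other day 6 arrays. Nor were they repeated with median scaling, where fewer genes passed and falls against day 6 were few. Differences between lists were not tested. Of the decidual stroma genes 6 were above day 6 and none below, and by day 10 none were above day 8 and 7 were below. The natural killer list had 8 above and none below day 6, and 9 above day 8 at day 10. Gzme was higher than at day 6 by 3.65 (SE 0.20, adjusted p = 6.23e-15) and rose by a further 2.17 (SE 0.22, adjusted p = 3.09e-09) to day 10. Of 30 smooth muscle genes 18 were below day 6 and none above. Of 21 mitosis genes none was above day 6 and 4 were below, and of 24 chaperone genes 9 were above and 1 below. The largest steps to day 10 were of conceptus genes. Hbb-y was at least 470.8-fold higher at day 10 than at day 8 (adjusted p = 4.05e-33). The trophoblast list had 22 of 30 genes above day 8, beside 10% of all genes. Of these 30 genes 24 were undetected on every day 8 array, and were kept only because arrays of other days detected them. A rise to day 10 was thus partly fixed by the filter, and the count does not test it.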

How the data were processed

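Total RNA of 33 mouse uterine samples was hybridised to 1-colour Illumina bead arrays. Per the labels' protocols, RNA was taken with Trizol and RNeasy columns with DNase I and labelled as biotin cRNA. The deposited intensity table holds the authors' non-normalized intensity of 45281 probes per array, and its detection p-value per probe and array, per the file headers. The deposited series matrix holds the authors' log2 values of 16712 probes and was an alternative. The scanner software is not given in the sources used here.

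Intensities were background-corrected from the detection p-values (limma 3.58.1 in R 4.3.3, offset 16), quantile-normalized and log2-transformed. Probes detected at p under 0.01 on at least 4 arrays were kept (21107). GEO's platform annotation gave 15254 probes a single symbol, 5 several, and left 5912 kept probes unnamed. The brightest probe stood for each of 10412 genes, of which 3490 had several. 1 mean per group was fitted over all 33 arrays (26 residual degrees of freedom), with Benjamini-Hochberg adjustment over all genes. The number of arrays limits the precision. The fit was also run on simulated data with independent noise of 1 spread per gene. That run did not cover arrays on which whole lists move together, so it does not test the fit there.

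The text names the 10 largest rises and falls without overlap, the 5 largest each way for the neighbouring days, up to 4 rises, 4 falls and 3 genes that did not pass per list, and landmark genes. Not every gene the rule allows is printed. The members and the 37 gene lists were chosen with earlier results of these data known. Alternatives covered background, scaling, filter, probe choice, samples fitted, array weights, replicate block and leaving out arrays.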

Additional observations from a re-analysis of the deposited data

Results flagged for a closer look

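Single arrays far from the rest of their group were found in 29 of 282 gene groups tested (10.3%), where chance gives about 1 in 20, and in 19 of 74 list means. In non-pregnant uterus the far array was replicate 4 or replicate 6 in all 24 gene groups concerned.

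Non-pregnant replicate 6 was far above the other 5 for Cdh5 (9.18), Cyp26a1 (8.90), Fst (9.45), Npy (6.55), Prss28 (10.91), Prss29 (12.28), Sct (6.19), Spaca7 (5.65) and Tac2 (6.90). It was far below them for Cbr2 (8.85), Cfi (6.19), Ltf (8.67), Muc1 (7.57), Slc40a1 (10.27) and Wnt4 (5.41). Its list means stood apart upwards for neuropeptides (7.01), vascular ligands (7.92), endothelial genes (9.40) and gland genes (8.60), and downwards for oestrogen-responsive genes (7.14).

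Non-pregnant replicate 4, with 13097 probes detected, was far above the others for Angpt4 (6.95), Bmp8a (7.59), Greb1 (11.13), Lss (6.77), Myl9 (13.87) and Ppard (10.48), and far below for Csf1r (5.63), H2-Aa (7.49) and Slc6a6 (11.34). Its list means were high for cholesterol (7.24), smooth muscle (11.36), trophoblast (4.68) and embryo genes (5.17). They were low for matrix proteases (9.17), macrophage (6.88), MHC class II (6.49), chemokine (5.67) and complement genes (7.97).

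At day 8, replicate 3 stood apart for Adipoq (8.65), Oasl2 (8.72), Vegfa (9.13) and the adipose list mean (8.52), and replicate 1 for Cbln1 (11.34) and Ldha (12.84). Replicate 4 had the lowest list means for hypoxia (8.77), epithelium (6.27), MHC class II (6.35) and granulocyte genes (6.44), within narrow ranges of the other 3.

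Among detected probes with no usable gene name, which the comparisons above do not use, 916 of 5912 changed at day 8 against non-pregnant uterus, 396 higher and 520 lower.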

How the results depend on the processing

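Of 136 named genes called against non-pregnant uterus, 125 kept direction and call under each alternative run. The counts of changed genes depended on background and threshold. Without background correction 1050 genes changed at day 8, 248 differed from day 6 and 310 between days 8 and 10, and with the series matrix values 1088, 256 and 329. With no fold minimum the counts were 5304, 2105 and 1878, and with 4-fold 664, 109 and 221. Leaving out 1 array gave 2234 to 2405, 605 to 697 and 746 to 841, and leaving out non-pregnant replicates 4 and 6 together, chosen after seeing the data, gave 2485, 682 and 850. Acta2 turned to -0.63 with the mean of all probes and Alpl to 0.91 with array weights, and the cause was not tested. Arrays of the same number in the deposited intensities did not deviate together (correlations 0.03, -0.00579, 0.00669 and -0.0303). A replicate block on those numbers gave 2364, 704 and 829 changed genes. Scaling moved the median of all genes by under 0.1 on the log2 scale. Dim probes limit what could be seen: 643 tested genes were undetected on all non-pregnant arrays and 1088 on all day 8 arrays, where only bounds are given.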

Other observations

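Lymphocyte and complement genes gave mixed values. Of 12 measured T, B and plasma cell genes 3 rose and 7 fell. The T cell receptor subunits Cd3e and Cd3g were undetected on all day 8 arrays and at least 1.69-fold and 1.56-fold higher in non-pregnant uterus (limma adjusted p = 0.000514 and 0.000528), with overlap between the groups. Cd8b1, a co-receptor chain of cytotoxic T cells, read 11.56, 11.61, 11.45 and 11.68 at day 8 against 10.09 to 11.20, and was higher by 1.08 (SE 0.16, adjusted p = 1.18e-06). Its second probe went the other way (-0.93, adjusted p = 0.00756), so the direction of Cd8b1 is uncertain.

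Of 19 measured complement and coagulation genes 4 rose and 6 fell, and 2 and 3 with median scaling. Cfi, the protease that inactivates complement, read 5.08, 4.76, 5.33 and 5.11 at day 8, all undetected, and was at least 24.8-fold higher in non-pregnant uterus (adjusted p = 5.29e-06). Its fitted difference was -4.91 and moved to -5.67 without non-pregnant replicate 6, which read 6.19. Tfpi, the tissue factor inhibitor, rose by 1.96 (SE 0.21, adjusted p = 6.34e-09). Of 10 genes marking oviduct, mesothelium, nerve and skeletal muscle 2 rose and 4 fell. Prph, a peripheral nerve filament, was undetected in non-pregnant uterus and at least 1.55-fold higher at day 8 (adjusted p = 2.73e-11).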
